A study of Rattus norvegicus with 21 samples.

Results

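Transcripts that mark oligodendrocytes, astrocytes and microglia were followed in 21 single hippocampal neurons that had been patched, recorded and aspirated. The 9 genes are Mbp and Olig2 for oligodendrocytes, Apoe, Aldoc, Clu, Slc1a2 and Slc1a3 for astrocytes, and Aif1 and Cd68 for microglia. They were picked by symbol, as the row with the highest mean where a symbol has several, and all 9 were found among 16245 gene symbols in the deposited table. The neurons came from embryonic day 18 Wistar rats that carry a Venus reporter transgene for the vesicular GABA transporter (VGAT), and were taken after 17 days in vitro. Of these, 5 were GABAergic neurons from purified cultures given oligodendrocyte conditioned medium (OCM) from day 3 in vitro, and 5 were GABAergic neurons from purified cultures without OCM. Purified cultures had received the antimitotic agents FdU and U at 5 µM, added 24 h after dissection and removed after 36 h. The cultures that kept their glia gave 5 pyramidal and 6 GABAergic neurons and had no antimitotic agent, so the agent and the absence of glia cannot be told apart. OCM was collected from oligodendrocyte cultures made from cortices of Wistar rats at postnatal day 2. Venus marks the cells that carry the reporter, and the labels do not say how pyramidal neurons were recognised.

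Oligodendrocytes wrap axons in myelin, which Mbp compacts, and their lineage depends on the transcription factor Olig2. Astrocytes clear glutamate through the transporters encoded by Slc1a2 (GLT-1) and Slc1a3 (GLAST), carry lipid on Apoe and are rich in Aldoc, a glycolytic aldolase, and in Clu, a secreted chaperone. Microglia, the resident phagocytes of the brain, carry the calcium-binding protein Aif1 (IBA1) and the lysosomal glycoprotein Cd68. Of these genes, Clu and Apoe are also known to be transcribed by some neurons, Apoe is made by microglia as well as astrocytes, and the Mbp locus also gives upstream-started transcripts, known as Golli, in neurons and immune cells.

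Values are read counts that the authors normalized with DESeq2, and they came back as whole reads, 1817671 to 25160911 per cell. A gene is called held by a cell at a normalized value of 10 or more. Where a gene had 0 reads, 3 reads stand as the limit that such a count allows, which is a normalized value of 0.909 to 17.7 depending on the cell. Intervals and limits cover counting error alone. The labels name no animal or culture, so each group is 1 sample, and no p-value, standard error or test of a difference is given. SDs describe the spread between cells. A tube held the contents of a pipette tip, so RNA of the patched cell and RNA taken up with it cannot be told apart.

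The labels of some cells were not borne out by all of their transcripts. Slc17a7, the vesicular glutamate transporter of pyramidal neurons, had 0 reads in pyramidal cell 3 and values above 0 in the other 4 pyramidal cells. Snap25, a synaptic vesicle fusion gene, was at 3590 there, the lowest of the 21 cells. This cell held 3 of the 11 genes of a neuron list, against 5 to 9 in every other cell. Besides Snap25 these were Stmn2, at 7799, and Nefl, at 3282. Both lay within the range of the other pyramidal cells, 3878 to 19360 for Stmn2 and 395 to 17091 for Nefl. Neuronal transcripts were thus present in this cell. Gad1, which makes GABA, had 0 reads in the 5 pyramidal cells and in purified cell 4 and values above 0 in the other 15 cells. Gad2, a second gene for GABA synthesis, was at 14087 in purified cell 4. It was also read in pyramidal cells 1 and 2, at 924 and 714, and not in the other pyramidal cells. The lowest Gad2 value of a GABAergic cell was 898, in purified cell 5. Results that rest on the library labelled pyramidal cell 3 are given with and without it.

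Oligodendrocyte and microglial members were held by a few neurons grown with glia and by none of the 10 neurons from purified cultures. Nearly every cell of both held an astrocyte member, which in some cells from purified cultures was Clu alone. At least 1 oligodendrocyte member was held by 0 of 10 neurons from purified cultures, with or without OCM, against 5 of 11 neurons from cultures with glia. The neurons from purified cultures are all GABAergic, and of those 5 cells 3 are pyramidal, so among GABAergic neurons the count with glia is 2 of 6. Without pyramidal cell 3 it is 4 of the 10 remaining cells with glia. A microglial member was held by 0 of the 10 neurons from purified cultures, against 2 of the 11 grown with glia. Both of these are pyramidal, and among GABAergic neurons the count is 0 of 10 without glia and 0 of 6 with glia. An astrocyte member was held by 9 of the 10 and by 11 of the 11. In OCM-treated cells 1 and 5 and purified cell 5 that member was Clu alone, whereas every cell with glia held another astrocyte member than Clu. By class, 15 of the 21 cells held astrocyte members and no others, 3 held oligodendrocyte and astrocyte members, 2 held all 3 classes and 1 held none. No cell, 0 of 21, held an oligodendrocyte or microglial member without an astrocyte one. Since 20 of the 21 cells held an astrocyte member, that last count was nearly fixed in advance, and no co-occurrence is read from it.

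**Figure D1:**
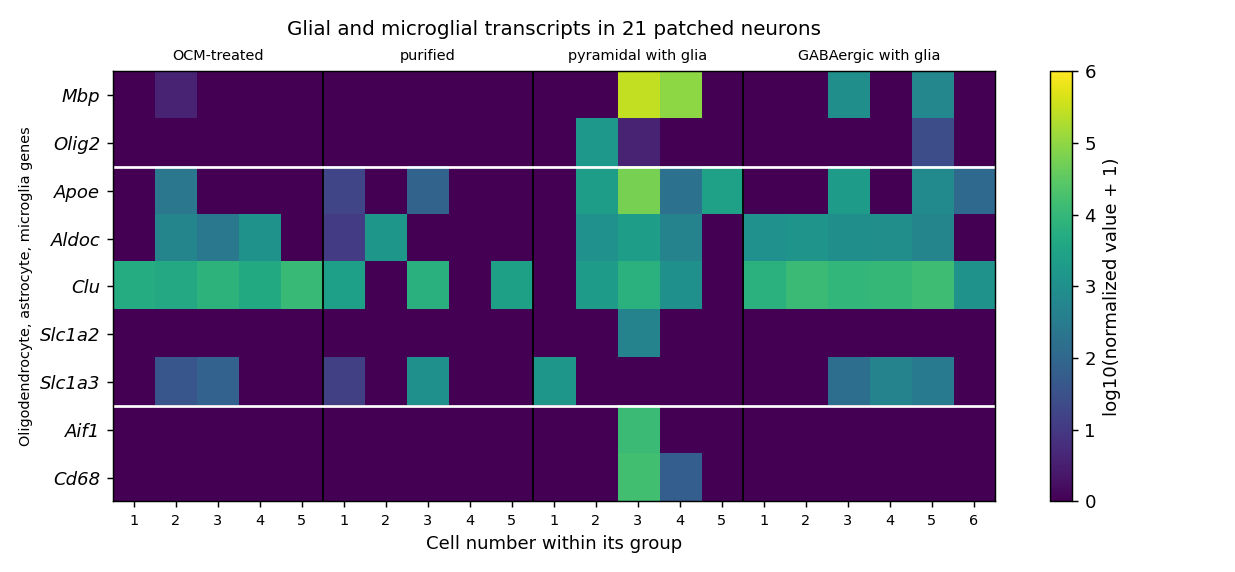
Heat map of log10(normalized value + 1) for the 9 genes (one per line, white lines between the oligodendrocyte, astrocyte and microglia classes) in 21 cells (columns, black lines between groups). Mbp, Apoe, Aif1 and Cd68 are brightest in pyramidal cell 3, Clu is above 0 in 17 cells, and the columns of both purified groups are dark for Olig2, Slc1a2, Aif1 and Cd68.

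The 9 genes together took 2.96% of the reads of pyramidal cell 3 and 1.37% of those of pyramidal cell 4. In the remaining cells their share lay between 0% and 0.209%, with glia-cultured GABAergic cell 5 the highest. By number, pyramidal cell 3 held 7 of the 9 genes, glia-cultured GABAergic cell 5 held 6, and pyramidal cell 4 and glia-cultured GABAergic cell 3 held 5 each. OCM-treated cells held 1 to 4 (median 2), purified cells 0 to 3 (median 1), pyramidal cells 1 to 7 (median 4) and glia-cultured GABAergic cells 2 to 6 (median 2.5), so the groups overlapped.

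Cells in which more genes of any kind were detected also held more of the 9. Table entries above 0 ranged from 2540 to 8652 per cell, with glia-cultured GABAergic cell 5 the highest. Across the 21 cells, which differ in depth and share no known source, Pearson's r between the 2 numbers was 0.51 and Spearman's rho 0.45, and without pyramidal cell 3, which held 7 genes with 2684 entries above 0, they were 0.78 and 0.62. After every cell was thinned to 1817671 reads and 3 reads were asked of a gene, r was 0.50, and 0.78 without that cell. The part of detection in the differences below was not tested.

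Mbp separated a few cells from all others. Its value was 3.05, from 6 reads, in OCM-treated cell 2 and 0 in the other OCM-treated cells. It had 0 reads in the 5 purified cells. It reached 278859 in pyramidal cell 3 and 95386 in cell 4, and was 0 in the remaining pyramidal cells. Glia-cultured GABAergic cells 3 and 5 had 959 and 609, and the other 4 had 0. Mbp was thus high in 2 pyramidal cells and present at a far lower level in 2 GABAergic cells of the cultures with glia. As a share of reads it was 2.20% in pyramidal cell 3 (exact Clopper-Pearson 95% interval 2.19 to 2.21%) and 1.35% in pyramidal cell 4 (1.34 to 1.35%), against 0.0113% (0.0107 to 0.0118%) in glia-cultured GABAergic cell 3 and 0.00811% (0.00765 to 0.00860%) in cell 5.

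The titles of the cells begin with P, S or ech, which the labels leave unexplained, and Mbp moved with these letters. All 4 cells that held Mbp were titled P, of 7 cells so titled, 6 of them from cultures with glia. None of the 12 cells titled S or the 2 titled ech held it. The purified cells include 1 titled P and the OCM-treated cells 0, and the part of the letter in the difference between cultures was not tested.

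Mbp has 2 entries in the table. The one used above spans chromosome 18, 79406381 to 79437310, in rn6. The other, with the lower mean, spans 79326738 to 79407290, and they overlap by 910 bases. The sources used here do not state the strand setting or how reads in the overlap were assigned. The upstream entry had 1046 reads in pyramidal cell 3, 3178 in pyramidal cell 4, 378 in glia-cultured GABAergic cell 3 and 8 in GABAergic cell 5, and 0 in the other 17 cells. The downstream entry had 182 times the reads of the upstream one in pyramidal cell 3, 96.3 times in pyramidal cell 4 and 143 times in GABAergic cell 5. In GABAergic cell 3 the ratio was 4.08, so that cell carried much more upstream signal for its downstream signal than the other 3.

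Olig2 did not follow Mbp. It lies on chromosome 11, 31389514 to 31392890. Its value was 0 in all OCM-treated and purified cells. In pyramidal cell 2 it was 1604, from 272 reads, in pyramidal cell 3 it was 2.93, from 2 reads, and in the other 3 pyramidal cells it was 0. In glia-cultured GABAergic cell 5 it was 25.6 and in the other 5 it was 0. The cell with the highest Olig2 value had no Mbp reads, and 1 cell of 21, GABAergic cell 5, held both.

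The microglial members were nearly confined to 1 library. Aif1, on chromosome 20, 5161352 to 5166448, was at 12525 in pyramidal cell 3, from 8541 reads, and had 0 reads in the other 20 cells. Cd68, on chromosome 10, 56268727 to 56270605, reached 15290 in pyramidal cell 3, from 10426 reads. Pyramidal cell 4 had 59.9, from 192 reads, and the other 19 cells had 0 reads. Both cells are titled P and both hold Mbp. Without pyramidal cell 3, 1 of 20 cells held a microglial member.

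Apoe was highest in the same cell. The bases before the transcription start of Cd68 and Apoe are shown since these genes, of the microglial and astrocyte classes, reach their highest value together there. The sequences are from RefSeq on GRCr8 (a different build from the rn6 of the values) and cover the 250 bases before the start, for Apoe the most upstream of 3 starts listed. Cd68 lies at chr10:54882442-54882691 on the minus strand and Apoe at chr1:88485817-88486066 on the minus strand. Capitals mark GAGGAA or its reverse complement TTCCTC, the core that the myeloid factor PU.1 is known to bind. Sequences of 7 of the 9 genes were matched by symbol.
Cd68: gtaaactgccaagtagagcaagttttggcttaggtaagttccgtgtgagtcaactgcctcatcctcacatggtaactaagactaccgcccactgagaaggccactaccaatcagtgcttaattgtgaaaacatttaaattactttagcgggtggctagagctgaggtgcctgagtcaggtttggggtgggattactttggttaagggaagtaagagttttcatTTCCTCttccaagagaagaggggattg
Apoe: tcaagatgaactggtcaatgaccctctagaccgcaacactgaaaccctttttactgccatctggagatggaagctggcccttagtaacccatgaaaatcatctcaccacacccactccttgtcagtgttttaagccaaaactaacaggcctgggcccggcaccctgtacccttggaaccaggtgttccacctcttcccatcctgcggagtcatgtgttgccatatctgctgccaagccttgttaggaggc
The letters occur once in the Cd68 window, 27 bases before the start, and not in the Apoe one. Of 33469 rat windows of this length 23.3% hold them on either strand, so a match describes the window and marks no site.

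Apoe, at chromosome 1, 80612893 to 80616820, was held in every group by some cells and not others. It stood at 242 in OCM-treated cell 2 and at 0 in the other 4. Purified cells 1 and 3 had 17.3 and 82.2, and the other 3 had 0. Pyramidal cells 1 to 5 had 0, 2253, 59681, 183 and 2644. Glia-cultured GABAergic cells 3, 5 and 6 had 2011, 713 and 110, and the other 3 had 0. The highest OCM-treated cell lay below all pyramidal cells that had reads except cell 4, and the highest purified cell lay below all of them. Both lay within the range of glia-cultured GABAergic cells. Every cell that held Mbp or Olig2 also held Apoe, 5 of 5, whereas 5 of the other 16 cells held Apoe. This is not particular to Apoe, since the same 5 cells all held Aldoc and Clu, which 12 and 17 of the 21 cells held.

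Clu was present in most neurons of each GABAergic group. It spans chromosome 15, 42626612 to 42665858. OCM-treated cells 1 to 5 had 5148, 4227, 7426, 4294 and 11325. Purified cells 1, 3 and 5 had 2412, 6536 and 2622, and cells 2 and 4 had 0. Clu was therefore read in 5 of 5 cells with OCM and 3 of 5 without. Pyramidal cells 2, 3 and 4 had 2017, 6769 and 1043, and cells 1 and 5 had 0. Glia-cultured GABAergic cells ranged from 1170 in cell 6 to 13511 in cell 5, with a median of 9736. Ranges of all 4 groups overlapped.

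Aldoc, at chromosome 10, 65586478 to 65590093, was held by 5 of 6 glia-cultured GABAergic cells in a narrow range. OCM-treated cells 2, 3 and 4 had 543, 258 and 1226, and the other 2 had 0. Purified cell 2 had 1538, cell 1 had 9.89, from 8 reads, and the other 3 had 0. Pyramidal cells 2, 3 and 4 had 1097, 2131 and 485, and cells 1 and 5 had 0. Glia-cultured GABAergic cells 1 to 5 had 1079, 1277, 949, 927 and 549, and cell 6, the 1 titled S, had 0. The pyramidal cells with and without Aldoc were the same as those with and without Clu.

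The glutamate transporters were sparse. Slc1a2, at chromosome 3, 92518679 to 92665731, had 482 in pyramidal cell 3, from 329 reads, and 0 reads in the other 20 cells. Slc1a3 spans chromosome 2, 57860881 to 57935363. OCM-treated cell 2 had 39.7, OCM-treated cell 3 had 77.0 and the rest of that group 0. Purified cell 3 had 1025, purified cell 1 had 12.4 and the other 3 had 0. Pyramidal cell 1 had 1514 and the other 4 had 0. Glia-cultured GABAergic cells 3, 4 and 5, the 3 titled P, had 149, 475 and 293, and the other 3 had 0. The highest Slc1a3 values were thus in a pyramidal and a purified cell that had no Mbp, Olig2, Aif1 or Cd68 reads, and pyramidal cell 3, with the highest Apoe, had none of it.

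**Figure D2:**
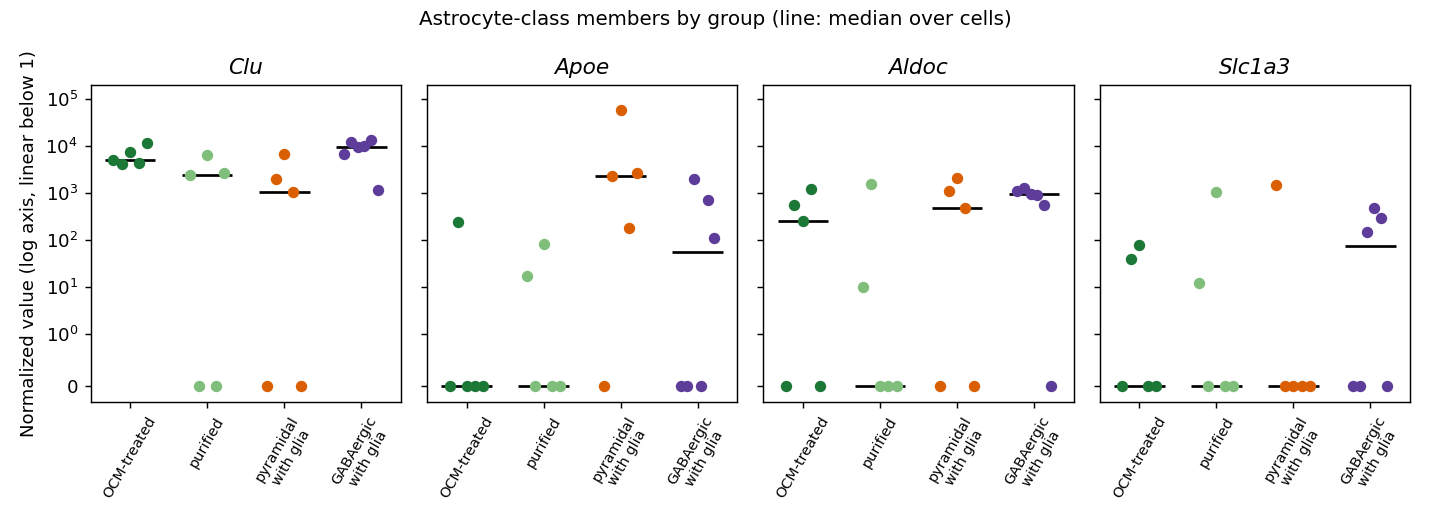
Normalized value of Clu, Apoe, Aldoc and Slc1a3 in each cell by group, on a log axis that is linear below 1, with the median over cells as a black line. Clu lies between 4227 and 11325 in the OCM-treated cells and at 0 in 2 purified cells, and points of the 4 groups overlap in each panel.

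Purified and OCM-treated neurons were set beside GABAergic neurons grown with glia to ask how these transcripts differ between cultures without and with glia. Differences are of group means of log2(normalized value + 1), which largely follow how many cells had reads. With both purified groups together, 5 of the 9 genes were lower by 1 or more and 0 were higher by as much. Of all 7305 genes above 0 in at least 3 of these 16 cells, 56.8% were lower by 1 or more and 11.4% were higher by as much. These shares are over genes that pass the filter, whereas 4 of the 9 do not. The 5 that pass are the 5 that were lower, with a median of -2.98, and nothing is read from this, since the filter asks for reads in several cells. No gene of the 9 separated the groups without overlap, against 0.178% of genes lower and 0.0137% higher without overlap. The median over the 9 was -1.52, beside -1.37 over the 7305 genes. With values under 3 reads set to 3 reads per cell it was -1.05.

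Aldoc had the largest difference of mean log2 values, which was not so for the log2 ratio of mean normalized values, at -1.15 for Aldoc, -7.65 for Mbp and -3.75 for Apoe. Its mean log2 value was 4.14 ± 4.77 (SD, 10 cells) in neurons from purified cultures and 8.21 ± 4.04 (SD, 6 cells) with glia, a difference of -4.07 that lay between -5.71 and -3.61 with any 1 cell left out. Mbp had a mean log2 value of 0.20 ± 0.64 (SD, 10 cells) and 3.19 ± 4.95 (SD, 6 cells), a difference of -2.99 that became -1.65 without glia-cultured cell 3 and -1.78 without cell 5. Clu had 9.80 ± 5.21 (SD, 10 cells) and 12.79 ± 1.31 (SD, 6 cells), a difference of -2.98 that became -1.89 without purified cell 2 or without purified cell 4. For Apoe the difference was -2.69, -1.41 without glia-cultured cell 3 and -1.71 without cell 5. For Slc1a3 it was -1.52, with a range from -2.35 without purified cell 3 to -0.55 without glia-cultured cell 4, and with -0.88 without cell 3 and -0.69 without cell 5. Its place past 1 rested on each of these 3 cells, and without any of them 4 of the 9 genes were lower by 1 or more. The median over the 9 was -0.95 without cell 3 or cell 4, -0.69 without cell 5 and -2.33 without cell 1 or cell 2. Olig2 differed by -0.79, from 1 cell with 48 reads, and Slc1a2, Aif1 and Cd68 had 0 reads on both sides. The SDs are as large as most of these differences.

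Each purified group alone was set against the same 6 cells with glia, which both comparisons share. OCM-treated cells had 4 genes lower by 1 or more, beside 44.4% of 6772 genes, and a median over the 9 of -0.79, beside -0.72. None was higher by as much, beside 20.3%, and none stood without overlap, beside 0.517% lower and 0.177% higher. Of the 9, 5 pass the filter behind these shares, and 4 of those 5 were lower by 1 or more. Purified cells without OCM had 5 genes lower by 1 or more, beside 64.4% of 6302 genes, and a median of -1.31, beside -2.13 over those genes. None was higher by as much, beside 11% of genes, and none stood without overlap, beside 1.51% lower and 0.159% higher. Here 4 of the 9 pass the filter, all 4 lower by 1 or more, and Mbp was lower but does not pass. In both comparisons the medians over the 9 take in genes that do not pass. Clu differed by -0.23 with OCM and by -5.73 without it, and Aldoc by -2.74 and -5.40. For Apoe the values were -2.96 and -2.43, and for Slc1a3 -1.73 and -1.31.

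Title letters limit this comparison. Among cells titled P, 1 purified against 3 with glia, Aldoc differed by -9.62, Slc1a3 by -8.11, Apoe by -6.82 and Mbp by -6.39. Among cells titled S, 9 against 1, Aldoc differed by 4.60, Slc1a3 by 2.82 and Mbp by 0.22, Apoe by -4.75 and Clu by -0.56, and 1 of the 9 genes was lower by 1 or more. The direction for Aldoc, Slc1a3 and Mbp was therefore not the same in both letters, and each letter has 1 cell on one side.

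OCM-treated neurons were also set beside purified neurons without OCM. Clu was higher by 5.50 with OCM, at a mean log2 value of 12.55 ± 0.61 (SD, 5 cells) against 7.05 ± 6.46 (SD, 5 cells), and by 3.74 to 6.91 with any 1 cell left out. Aldoc was higher by 2.67, with 5.47 ± 5.06 (SD, 5 cells) and 2.81 ± 4.60 (SD, 5 cells), and that difference was 1.47 without OCM-treated cell 4, 1.76 without OCM-treated cell 2, 4.03 without OCM-treated cell 1 or cell 5, and 4.61 without purified cell 2. These 2 were the members higher by 1 or more, of 9, beside 56% of 5143 genes, and 0 were lower by as much, beside 16.4%. Of the 9, 4 pass the filter behind these shares, and of those 4, 2 were higher and 0 lower by 1 or more. None of the 9 separated these groups, against 0.233% of genes lower and 0.817% higher without overlap. The median over the 9 was 0, set by genes with no reads, and -0.70 with values under 3 reads set to 3 reads per cell, where the deeper OCM-treated cells get lower limits. Over the 5143 genes the median was 1.40. Apoe differed by -0.53 and Slc1a3 by -0.42, less than the spread between cells, and both changed sign without purified cell 3, to 0.54 for Apoe and 1.39 for Slc1a3. Olig2, Slc1a2, Aif1 and Cd68 had 0 reads in these 10 cells.

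Pyramidal neurons were compared with GABAergic neurons of the same kind of culture. By the means of log2 values 6 of the 9 genes were higher in pyramidal cells by 1 or more, beside 13.3% of 6571 genes, and 3 were lower by as much, beside 64.2%. Slc1a2, Aif1 and Cd68, 3 of the 6, do not pass the filter behind these shares. Of the 6 genes that pass it, 3 were higher and 3 lower by 1 or more, with a median of -0.10. The groups overlapped for each of the 9, against 1.84% of genes lower and 0.243% higher without overlap. The median over all 9 was 1.78, beside -2.05, and 2.15 with values under 3 reads set to 3 reads per cell. Without pyramidal cell 3 the genes higher by 1 or more numbered 3 and the median was 0. Without pyramidal cells 3 and 4 the number was 2, Olig2 and Apoe, and the median 0.

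Apoe had a mean log2 value of 9.18 ± 5.92 (SD, 5 cells) in pyramidal and 4.54 ± 5.15 (SD, 6 cells) in GABAergic cells, a difference of 4.64 that was 2.96 without pyramidal cell 3. Mbp was higher by 3.73, by 0.94 without pyramidal cell 3 and by 1.33 without cell 4, and it differed by -3.19 without both. Clu went the other way, with 6.75 ± 6.23 (SD, 5 cells) in pyramidal and 12.79 ± 1.31 (SD, 6 cells) in GABAergic cells, a difference of -6.04 that stayed between -7.54 and -4.35 with any 1 cell left out. Aldoc differed by -2.19, and by -0.69 without pyramidal cell 1 or cell 5, by -3.45 without pyramidal cell 3 and by -3.83 without GABAergic cell 6. Slc1a3 differed by -1.94, by -4.05 without pyramidal cell 1, by -0.97 without GABAergic cell 4 and by -1.11 without GABAergic cell 5. Aif1, Cd68 and Slc1a2 had 0 reads in all 6 GABAergic cells, so their values above stand in place of a fold. Without pyramidal cell 3, Aif1 and Slc1a2 had 0 reads in both groups and the Cd68 difference of 3.97 became 1.48. Olig2 was higher by 1.74, and it differed by -0.30 without pyramidal cell 2. Among cells titled P, 3 against 3, Mbp, Apoe, Aif1 and Cd68 kept their direction, Clu and Slc1a3 were lower in pyramidal cells, and Olig2 differed by -0.92.

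**Figure D3:**
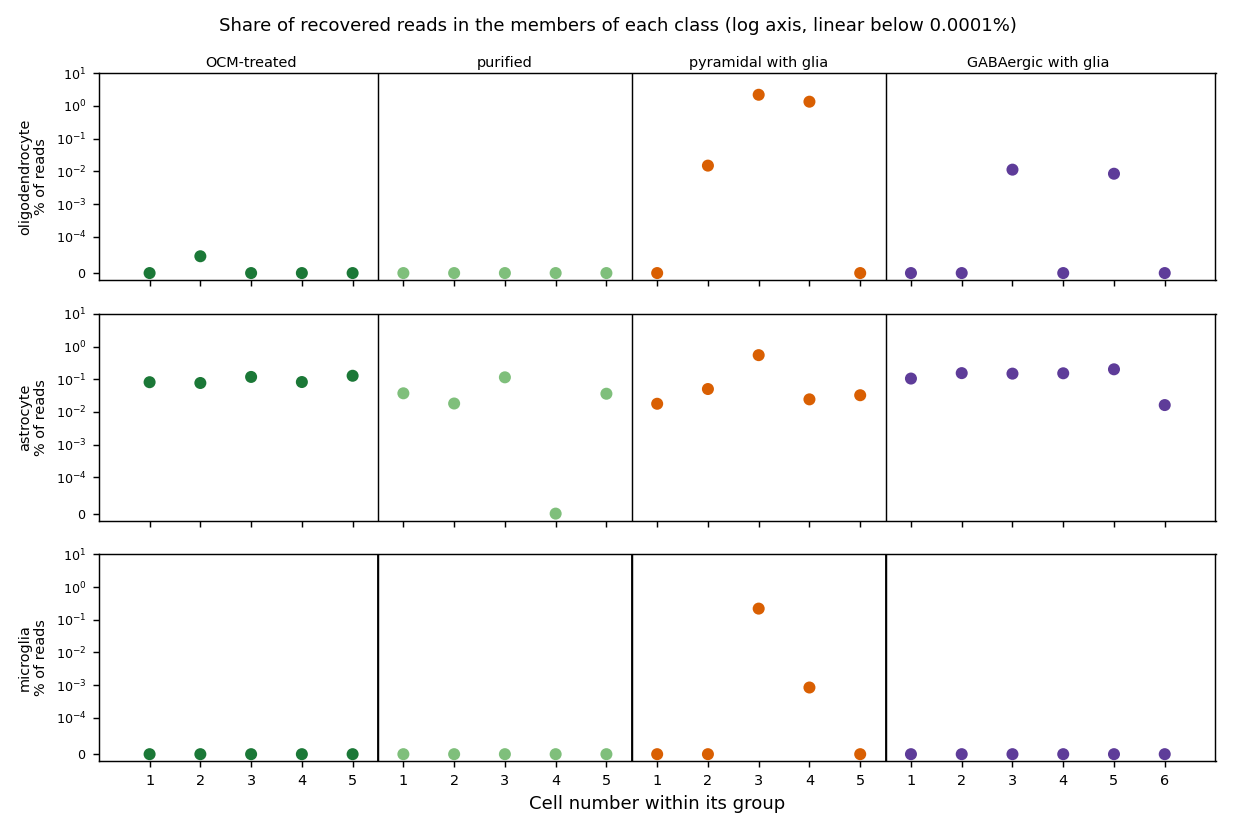
Percent of each cell's recovered reads in the oligodendrocyte, astrocyte and microglia members (panels from top to bottom), on a log axis that is linear below 0.0001%, 1 point per cell in 4 groups. Pyramidal cells 3 and 4 stand at 2.20% and 1.35% in the top panel, 20 of 21 cells are above 0 in the middle one, and 2 cells are above 0 in the bottom one.

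In wider marker lists without the 9 genes, the cells with most oligodendrocyte and most microglia genes were again pyramidal cells 3 and 4, but single list genes were held more widely. At least 1 gene of the oligodendrocyte list was held by 10 cells, and likewise 10 for the microglia list. Of 20 oligodendrocyte genes, pyramidal cell 3 held 8 and pyramidal cell 4 held 9, glia-cultured GABAergic cells 5 and 3 held 4 and 3, and every other cell held 2 or fewer. Purified cells 1, 2 and 3, pyramidal cell 5 and glia-cultured GABAergic cell 1 held 1 list gene each and neither Mbp nor Olig2. Summed values were 60021 and 10992 in those pyramidal cells, 0 to 7.12 in OCM-treated cells, 0 to 857 in purified cells and 0 to 604 in glia-cultured GABAergic cells. The 857 is Cnp, an enzyme of myelin, in purified cell 2. Cnp was the 1 list gene of glia-cultured GABAergic cell 1 as well, at 487. Of the list, Pdgfra, Ermn, Nkx2-2, Gpr17 and Enpp6 were among the genes with 0 reads in all 21 cells.

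Pyramidal cells 3 and 4 shared part of their oligodendrocyte genes. Both held 5 of them, among which are Olig1, Cnp, Bcas1 and Myrf, 62.5% of the genes of cell 3 and 55.6% of those of cell 4. Bcas1 is not particular to them: it was at 754 in cell 3 and 823 in cell 4, and highest, at 1597, in pyramidal cell 5, which had 0 reads of Mbp and Olig2. Olig1, a lineage factor related to Olig2, had 6984 in cell 3 and 1097 in cell 4. It was also held by glia-cultured GABAergic cells 3 and 5, at 189 and 98.1, and by purified cell 1, at 29.7 from 24 reads. Cell 3 alone held Aspa at 6290, Ugt8 at 4319, an enzyme that makes myelin galactolipid, and Mobp at 2725. Cell 4 alone held Opalin at 1540, Sox10 at 583, Mog at 482 and Mag at 242, the last 2 encoding surface proteins of myelin.

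The microglia list of 19 genes stood out in pyramidal cell 3, which held 8, against 4 in pyramidal cell 4 and 0 to 2 elsewhere. Lyz2, a lysozyme of myeloid cells, was at 56902, Tyrobp, a signalling adaptor, at 7032, and the complement genes C1qc and C1qa at 3404 and 2577 in that cell. Lyz2 was also at 8965 in pyramidal cell 1, where Aif1, Cd68 and Tyrobp had 0 reads. The summed value of the list was 75757 in pyramidal cell 3. C1qc was also read at 106 in purified cell 2, which had 0 reads of Aif1 and Cd68. Markers of resting microglia, P2ry12, Cx3cr1 and Tmem119, and the myeloid factor Spi1, which encodes PU.1, had 0 reads in all 21 cells.

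Astrocyte list genes were spread more widely. Of 14 with a table entry among 17 listed, glia-cultured GABAergic cell 5 held 9, pyramidal cell 3 held 7 and OCM-treated cell 2 held 6, and the others held 0 to 3. Gfap, the astrocyte filament, was at 1445 in pyramidal cell 3, at 12.3 in glia-cultured GABAergic cell 4 and at 0 in the other 19. Aqp4, the astrocyte water channel, was at 22.4 in OCM-treated cell 2 and 2.49 in glia-cultured GABAergic cell 3 and had 0 reads in the other 19. Fabp7, a fatty acid carrier of radial glia and astrocytes, was at 11106 in pyramidal cell 3, and Sox9, a glial transcription factor, at 2800. Sparcl1, a secreted protein, was at 1016 or more in 4 pyramidal cells, in OCM-treated cells 4 and 5 and in glia-cultured GABAergic cells 1 and 5, and at 2.93 in pyramidal cell 3, so it did not follow the other astrocyte genes. Between neurons from purified cultures and glia-cultured GABAergic neurons, 7 of 14 astrocyte genes were lower by 1 or more, with a median of -0.95 beside -1.37 over all genes in that comparison, and 0 were higher by as much. The background shares are the 56.8% lower and 11.4% higher given above. Neuron markers were lower alongside, 6 of 11 by 1 or more with a median of -1.09, and their part in the astrocyte values was not tested. For the oligodendrocyte list 3 of 20 were lower and 0 higher, and for the microglia list 0 of 19 in either direction, with medians of 0 set by genes without reads. Only 2 genes of the oligodendrocyte list and 1 of the microglia list pass the filter behind those shares, so these counts cannot be set against them. Of the astrocyte list 8 of 14 genes pass it, and of the neuron list 9 of 11. Their counts and medians take in genes outside the filter, so they too are not like for like with those over all genes. A vascular and fibroblast list had 8 genes with an entry and none above 287 in any cell.

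**Figure D4:**
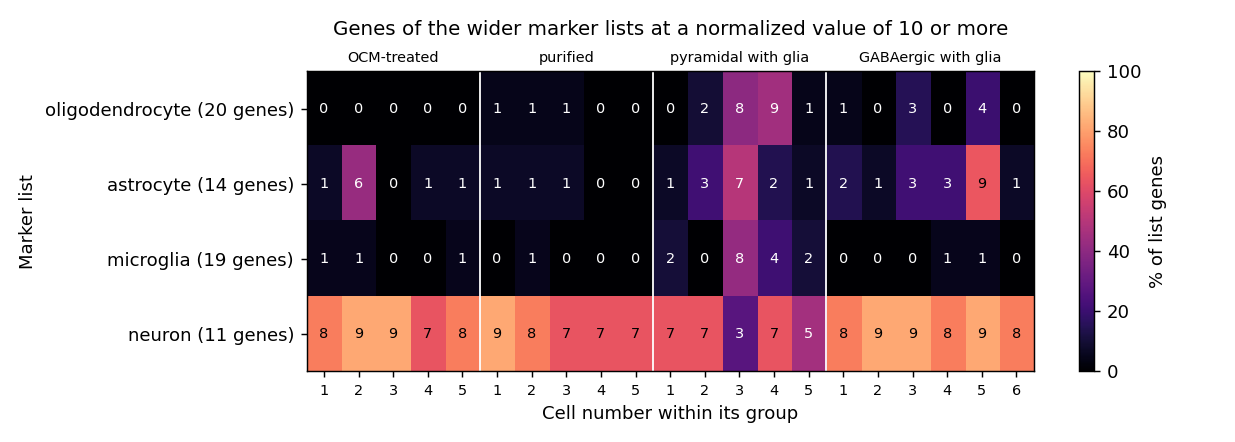
Number of genes of each wider marker list (lines) at a normalized value of 10 or more in each cell (columns, by group), coloured by percent of the list's genes. Pyramidal cell 3 shows 8, 7 and 8 in the oligodendrocyte, astrocyte and microglia lists and 3 of 11 neuron genes, and both purified groups show 0 or 1 in the oligodendrocyte list.

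Among the genes most like Mbp over the 21 cells were Pllp, Olig1, Rras2 and Srebf1, with Pearson's r of log2 values of 0.99, 0.96, 0.90 and 0.86 among 6720 candidate genes, as a description. Without pyramidal cell 3 these were 0.98, 0.93, 0.85 and 0.80. Pllp, which encodes the myelin protein plasmolipin, was at 8204, 978, 85.8 and 311 in pyramidal cells 3 and 4 and glia-cultured GABAergic cells 3 and 5, the 4 cells that held Mbp, and at 0 in the other 17. For Cd68 the genes most alike included Rras2 (0.94), Srebf1 (0.90), Nol12 (0.87) and Clmn (0.87), and since Cd68 had reads in 2 cells, these values describe those 2. Without pyramidal cell 3, which leaves 1 cell with Cd68 reads, they were 0.90, 0.63, 0.76 and 0.89. Clu was most like B3galnt1 (0.93), Dpp7 (0.89), Npm1 (0.83), Lsamp (0.82) and Vta1 (0.81), and 17 of 17 cells with Clu held B3galnt1.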

How the data were processed

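Single neurons were aspirated through the patch pipette, their polyadenylated RNA was amplified by SMART-Seq v4 and Nextera XT libraries were sequenced from both ends on a NextSeq500, according to the labels' protocols. The submitters' processing notes name rn6 as build and, as tools, DESeq2, SAMtools, Picard, FastQC and STAR 2.4.0. Which counter, annotation and strand setting were used is not given in these sources. The deposited table holds a signal for each gene and cell, never negative, that the authors call DESeq2-normalized. In each cell 100% of values above 0 were within 0.05 of a whole multiple of 1 step, which gave back reads and depth. Cells are not replicates, so no count test was run on these reads. Of 34976 table entries 18376 have no symbol, and every column of values belongs to a sample (0 exceptions).

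The 9 genes, the lists and the thresholds were chosen with earlier results of these data known. Named genes were the 9 members, list genes at 1000 or more in any cell (at most 6 a list), the 5 genes most alike to the highest-mean member of each class among genes at 10 or more in at least 3 cells with a mean of at least 50, and Gad1, Slc17a7 and Snap25. Sox10, Mog, Mag, Opalin, Bcas1, Myrf, Aqp4 and the list genes at 0 were named after their values were seen. Some genes that this rule takes are not reported here. Differences used a pseudocount of 1 and a filter of values above 0 in at least 3 cells for the background. The scripts were tested on simulated data. Work was done in Python 3.11.15 with matplotlib 3.10.9, scipy 1.17.1, pandas 2.3.3 and numpy 2.4.6. Alternatives were other pseudocounts, scalings, thinning, summaries, title letters and leaving out each cell. Chosen after seeing the data were the limit of 3 reads for low values, the sum of both Mbp entries, and the counts without pyramidal cells 3 and 4.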

Additional observations from a re-analysis of the deposited data

Results flagged for a closer look

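Of 24 pairs of a gene and a group with any spread, 13 had 1 cell farther from the rest than Dixon's 95% limit. Chance flags about 1 in 20 groups of normally spread values. Some of the 13 are single cells with reads beside cells with none, and in the rest other cells of the group had reads too. In pyramidal cells the flagged values were Apoe (59681), Cd68 (15290), Aif1 (12525) and Slc1a2 (482) in cell 3, Olig2 (1604) in cell 2 and Slc1a3 (1514) in cell 1. In purified cells they were Aldoc (1538) in cell 2, and Slc1a3 (1025) and Apoe (82.2) in cell 3. In OCM-treated cells Apoe (242) and Mbp (3.05) stood apart in cell 2. In glia-cultured GABAergic cells Apoe (2011) stood apart in cell 3 and Olig2 (25.6) in cell 5.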

How the results depend on the processing

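No paired analysis was possible because the labels give the cells no shared replicate numbers. The number of cells holding each class moved by no more than 1.5 times under thresholds of above 0 or 3 reads, thinning and scaling to the mean total. It moved elsewhere: 1 cell in place of 2 held a microglial member at 100 or more, 10 in place of 20 held at least 3 of 5 astrocyte members, and without pyramidal cells 3 and 4 the numbers were 3 for oligodendrocyte and 0 for microglial members.

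For neurons from purified cultures minus glia-cultured GABAergic neurons the median over genes was -2.98 over the 5 genes above 0 in at least 3 cells, 0 for medians over cells and 0 among cells titled S, where 1 gene was lower and 2 higher by 1 or more and Mbp (0.22), Aldoc (4.60) and Slc1a3 (2.82) reversed. With 1 cell left out it ran from -2.35 to -0.69.

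For pyramidal minus GABAergic neurons the median was -0.10 over the 6 genes that pass that filter, with 3 higher, and 5.94 for the log2 ratio of group means, with 1 lower and Slc1a3 at 0.98. Medians over cells gave 1 gene higher, cells titled S gave 3 and leaving out pyramidal cells 3 and 4 gave 2, with Mbp at -3.19. Olig2 reversed among cells titled P (-0.92) and without pyramidal cell 2 (-0.30), its leave-one-out range being -0.30 to 2.52. Among cells titled S, Apoe (-1.23), Aldoc (5.05) and Slc1a3 (5.28) reversed. With 1 cell left out 3 to 6 genes were higher, and the median was 0 to 2.52.

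For OCM-treated minus purified neurons the number lower by 1 or more, 0, became 1 with a pseudocount of 0.1 or the log2 ratio of group means, 2 among cells titled S, and 0 to 2 with 1 cell left out. The causes were not tested.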
